A study of Macaca mulatta with 16 samples.

Results

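Maturation of the untreated lung late in gestation was described from 6 rhesus macaque (Macaca mulatta) fetuses, which are the untreated animals among the 16 sequenced in the series. The term controls were the 2 animals delivered at 156 and 157 days of gestation, and they are all the untreated term animals of the series. The preterm controls were the 4 animals delivered at 131 to 135 days (092 at 133, 101 at 131, 113 and 209 at 135 days). Neither group received an intervention, and the labels give no strain, genotype or sex for them. Every animal gave 1 library of bulk lung RNA, selected for poly(A), so the comparison is between fetuses and not between repeat samples of a fetus. Animals are called by their group and the number in the labels, and where values of all animals are listed they follow the order 092, 101, 113 and 209 for the preterm controls and 200 and 201 for the term controls.

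Over this part of gestation the saccules of the primate lung divide into alveoli and the organ is prepared for breathing air. Alveolar type 2 cells make and store surfactant, the film of lipid and protein that lowers surface tension, and the flat type 1 cells form the surface for gas exchange. Fibroblasts and smooth muscle lay down the collagen and elastic fibres of the septa and vessels, and growth of the mesenchyme slows as birth comes near. Macrophages and other immune cells settle in the lung around birth. The conducting airways, which form much earlier, carry ciliated, secretory and basal cells and are held open by cartilage in their larger branches.

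The libraries held 20169363 to 28348816 counts on genes in the preterm controls, and 25883623 and 27616930 in term controls 200 and 201. Levels are CPM, each count scaled to the size of its library with TMM scaling, and differences are fitted means of log2 CPM, term minus preterm, each with its standard error (SE) from limma. Expression was tested for 19199 genes, and a call, higher or lower in term lung, needed a p below 0.05 after Benjamini-Hochberg adjustment and a difference of 2-fold or more. The spread was estimated from all 16 animals, since 2 animals against 4 leave few degrees of freedom. The other animals, all preterm, had received intra-amniotic LPS, a bacterial endotoxin, and were delivered after 16 hours (4 animals) or 5 days (3 animals), or after 5 days with Betamethasone-acetate given as well (3 animals), so every p-value rests in part on the spread among treated animals. The tissue of all 6 animals carried the defining genes of distal lung, with SFTPC at 2064 CPM or more, SFTPB at 2588 CPM or more, AGER at 511 CPM or more and NKX2-1, the lung epithelial transcription factor, at 76.6 CPM or more. Between the term animals 2263 genes (11.8%) differed by at least 2-fold, compared with 1689 to 2305 genes between any pair of preterm controls and 2143 to 3191 between a preterm and a term control.

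Term lung had 214 genes called higher, which is 1.11% of the genes tested, and 183 called lower, which is 0.953%, so that 2.07% were called in either direction. Agreement of the term animals on these genes was favoured by the call, because disagreement between them widens the spread. The counts that follow describe the called genes and are no separate test of agreement. All 214 genes called higher lay above every preterm control in both term animals, and 182 of the 183 called lower lay below every preterm control in both. At least 2-fold distance from the preterm mean was reached in both term animals by 152 of the genes called higher and by 125 of those called lower. The median difference of the genes called higher was 1.64 on the log2 scale in term control 200 and 1.45 in 201, and that of the genes called lower was -1.42 and -1.33. With no call needed, 2150 genes (11.2%) lay above and 2933 (15.3%) below every preterm control in both term animals. Fitting the 6 untreated animals alone gave 49 genes higher and 66 lower, and gestational age as a linear term gave 52 and 53. The counts also rested on few animals: with term control 200 left out, 58 genes were called higher and 71 lower, and with 201 left out 210 and 153. Leaving out preterm control 092 gave 135 higher and 120 lower, 101 gave 125 and 139, 113 gave 119 and 120, and 209 gave 288 and 271. In each of these fits the 214 and 183 genes called with all animals kept their direction. This was nearly fixed by the call, since all but 1 of them lay outside the preterm range in both term animals. Of the 78 called genes that are named, 18 stayed called with each animal left out in turn: RTKN2, TOP2A, CCNB1, BUB1B, FOXM1, MYBL2, KIF23, KIF18B, LOXL1, ELN, ACTG2, CXCL8, SPI1, CD14, LCN2, CAMP, MARCHF4 and KCNIP1. The other calls were each lost with at least 1 animal left out. Of the 18, RTKN2, CCNB1 and CAMP were not called with the 6 untreated animals fitted alone. RTKN2, TOP2A and CCNB1 were not called with age as a linear term. The fits with 1 animal left out still took their spread from the treated animals, and without a term control only 1 term animal remained.

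**Figure D1:**
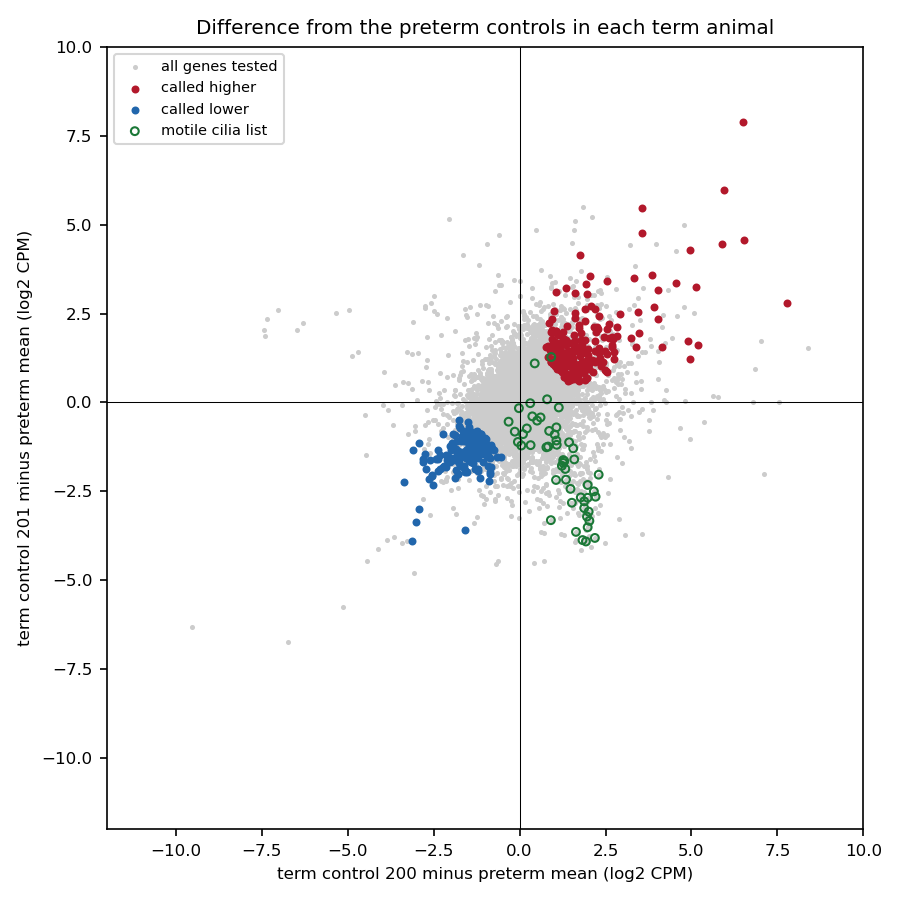
Difference from the mean of the 4 preterm controls in log2 CPM for each of 19199 genes, in term control 200 (horizontal axis) and in term control 201 (vertical axis). Genes called higher (red, 214) and lower (blue, 183) lie where both term animals are on the same side of the preterm mean, which the call favours. Most of the 52 motile cilia genes (green rings) lie where term control 200 is above and term control 201 below the preterm mean.

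Genes of alveolar type 2 cells stood higher in term lung. Of 21 members of that list tested, 3 were called higher and 0 lower, and 14 lay above every preterm control in both term animals. Over all genes tested these shares were 1.11% called higher and 11.2% above. The median log2 difference of the list was 0.81, compared with -0.01 over all genes tested. Its mean level ran from 6.62 to 7.25 log2 CPM in the preterm controls and was 7.96 and 7.59 log2 CPM in the term controls, so the groups did not overlap. In bulk tissue, fewer cells of a type and less RNA per cell cannot be told apart, and this holds for each list of cell type genes.

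The 3 type 2 genes called were CTSH, MFSD2A and LRRK2. CTSH, a lysosomal protease that trims pro-surfactant protein B, was at 161, 135, 214 and 149 CPM in the preterm controls and at 457 and 363 CPM in the term controls. It was 2.51-fold higher (log2 difference 1.33, SE 0.244, adjusted p = 0.00992). MFSD2A, a transporter of lysophospholipids, was at 1.13, 1.11, 2.27 and 3.93 CPM preterm and at 31.4 and 17.0 CPM at term, the largest rise of the list at 12.1-fold (log2 difference 3.60, SE 0.684, adjusted p = 0.0128). LRRK2, a kinase of the lamellar body and lysosome system, rose from 40.0, 44.0, 48.4 and 56.8 CPM to 139 and 151 CPM (log2 difference 1.63, SE 0.305, adjusted p = 0.0113). In each of these genes the lower term animal stood well above the highest preterm control. Without term control 200, 0 of the 21 members were called by limma, with 7 higher at an unadjusted p under 0.05; CTSH then differed by 1.16 and MFSD2A by 3.16 on the log2 scale.

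The surfactant proteins were not called, although both term animals exceeded every preterm control in each of the 4 genes measured. SFTPC, the small hydrophobic surfactant protein that only type 2 cells make, was at 2132, 2064, 4111 and 3474 CPM preterm and at 7549.8 and 6759 CPM at term (log2 difference 1.34, SE 0.450, adjusted p = 0.114). SFTPA1, a collectin that binds microbes and surfactant lipid, was at 955, 932, 2572 and 1796 CPM preterm and at 8090.3 and 4209 CPM at term (log2 difference 2.04, SE 0.663, adjusted p = 0.108). In both genes the preterm controls delivered at 135 days, 113 and 209, lay above those delivered at 131 and 133 days. A second surfactant protein A gene was not analysed here, and reads of such near-identical copies may be split between them. SFTPB, needed to form the surface film, had a log2 difference of 0.56 (adjusted p = 0.199) and SFTPD, the other collectin, one of 0.67 (adjusted p = 0.158). ABCA3, the lipid pump of the lamellar body, was at 175, 159.8, 190.3 and 239.9 CPM preterm and at 324 and 332 CPM at term. It was under the 2-fold limit, with an adjusted p just above 0.05 (log2 difference 0.80, SE 0.218, adjusted p = 0.0548). LPCAT1, which makes the dipalmitoyl lipid of surfactant, differed by 0.81 (adjusted p = 0.156) and LAMP3, a lamellar body membrane protein, by 1.22 (adjusted p = 0.197), again with both term animals above the preterm range.

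**Figure D2:**
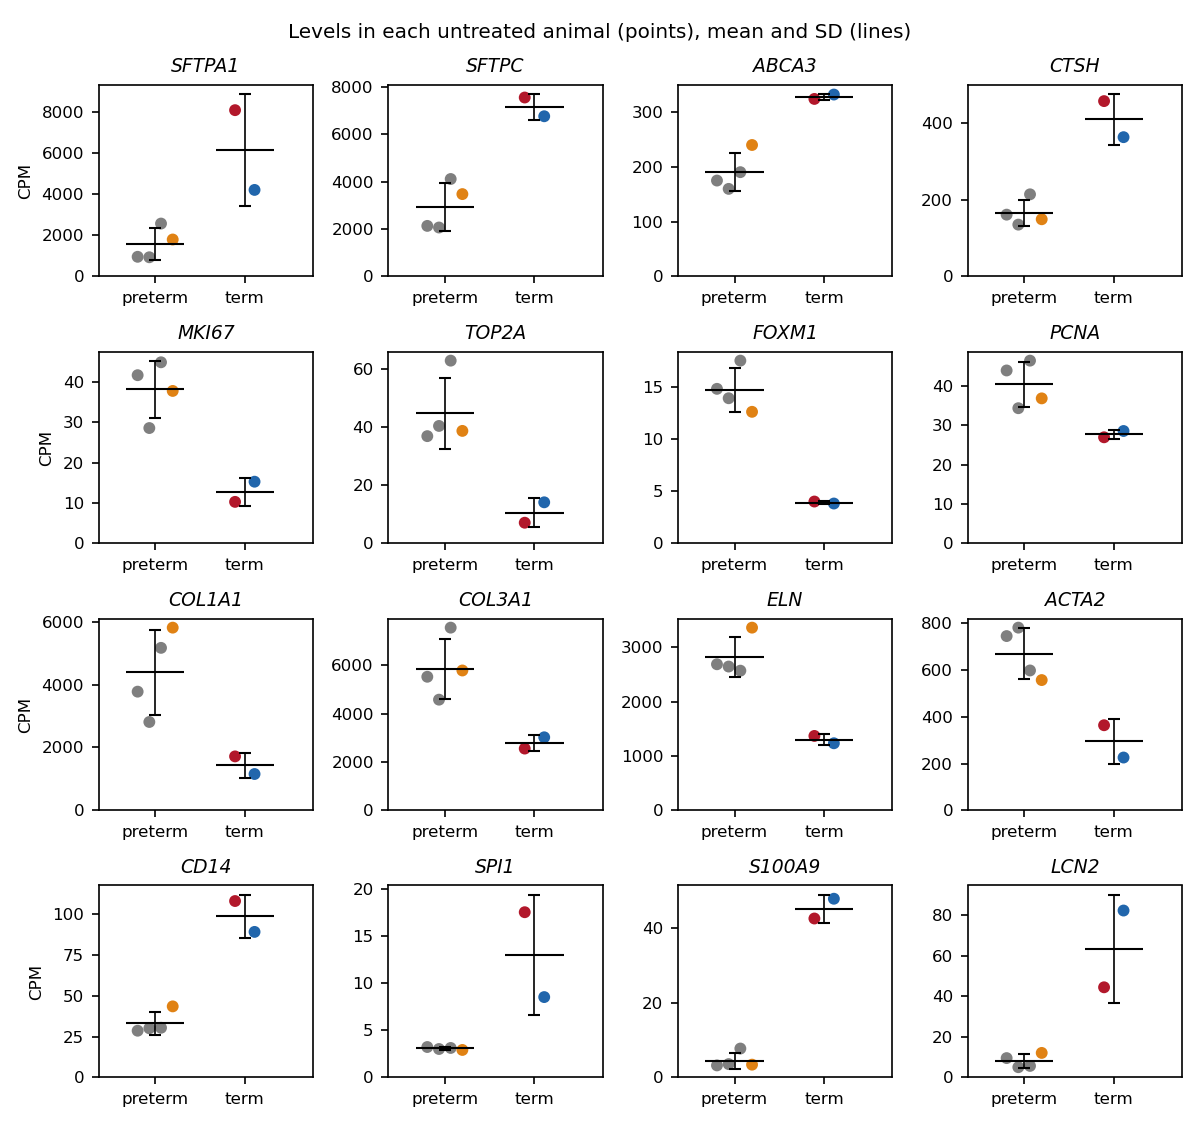
Level in CPM of 16 genes in each untreated animal, with the group mean and SD as black lines and bars. Points are preterm controls 092, 101 and 113 (grey) and 209 (orange) and term controls 200 (red) and 201 (blue), and in each panel both term animals lie outside the range of the preterm controls, as for TOP2A (36.8 to 62.7 CPM preterm, 7.10 and 14.1 CPM at term).

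Of 20 genes of alveolar type 1 cells, 1 was called higher and 0 lower, and 10 lay above the preterm range in both term animals (median log2 difference 0.30). The shares over all genes were 1.11% called higher and 11.2% above. The gene called was RTKN2, a marker of type 1 cells, at 57.9, 90.3, 95.8 and 125 CPM preterm and 201 and 229 CPM at term (log2 difference 1.27, SE 0.217, adjusted p = 0.00713). It stayed past the threshold with any 1 of the 6 animals left out. RTKN2 was not called with the 6 untreated animals fitted alone or with age as a linear term. AGER, the membrane receptor that marks type 1 cells, was at 511, 1119, 955 and 912 CPM preterm and at 1983 and 1196 CPM at term, so that the lower term animal was close to the highest preterm control (adjusted p = 0.249). CLIC5 and CYP4B1 were nearer to the preterm level, with log2 differences of 0.24 and 0.52, and CAV1, which endothelium also expresses, was at 1217 and 1804 CPM at term within or under the preterm range of 1681 to 2277 CPM. MS4A15, a membrane protein of the distal epithelium that was in no list, was at 3.79, 1.53, 4.61 and 6.08 CPM preterm and at 54.7 and 23.4 CPM at term (log2 difference 3.30, SE 0.781, adjusted p = 0.0337), and 2.69 without term control 200 (adjusted p = 0.248).

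Lists of ion and water transport, lipid synthesis, glucocorticoid response and antioxidant genes held 3 calls, all higher and all in the last 2 lists. Over all genes 1.11% were called higher and 11.2% lay above the preterm range in both term animals. Of 16 genes of ion and water transport, which clear liquid from the lung at birth, limma called 0 in either direction, with 2 higher at an unadjusted p under 0.05 and 0 called with voom weights. Among the most abundant, SCNN1A, a subunit of the epithelial sodium channel, was at 165, 102, 105 and 134 CPM preterm and at 179 and 111 CPM at term, and overlapped. Of 20 genes of lipid synthesis, 0 were called by limma with or without voom weights, with 6 higher and 1 lower at an unadjusted p under 0.05, and the median log2 difference was 0.41 with 9 members above the preterm range in both term animals. ACLY, which makes cytosolic acetyl-CoA, was the only member under the preterm range in both term animals, at 95.9 and 105 CPM compared with 133 to 141 CPM. Of 18 genes that respond to glucocorticoids, 1 was called higher, CEBPD, a transcription factor, at 38.4, 33.1, 27.5 and 43.8 CPM preterm and 116 and 67.2 CPM at term (log2 difference 1.33, SE 0.273, adjusted p = 0.0169; 0.93 and adjusted p = 0.203 without term control 200). The receptor itself, NR3C1, was at 229.6 and 283 CPM at term and within or under the preterm range of 249.8 to 321 CPM. Of 21 antioxidant genes, 2 were called higher. HMOX1, heme oxygenase, went from 8.78 to 11.1 CPM in the preterm controls to 30.7 and 15.9 CPM (log2 difference 1.16, adjusted p = 0.0342; 0.69 and adjusted p = 0.337 without term control 200), and GPX3 is described with the fibroblast genes.

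Genes of cell division fell together in term lung. Of 37 members tested, 21 were called lower and 0 higher, compared with 0.953% called lower over all genes, and 35 lay below every preterm control in both term animals, compared with 15.3%. The median log2 difference was -1.22. The mean level of the list was 3.49 to 3.91 log2 CPM in the preterm controls and 2.32 and 2.53 log2 CPM at term. The 2 members that overlapped were AURKB and HMMR, named here because they were the exceptions. With term control 200 left out, 12 members were called lower, and with 201 left out, 19.

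Among the regulators of the cycle, FOXM1, the transcription factor of the G2 and M phases, was at 14.8, 13.9, 17.5 and 12.6 CPM preterm and at 4.01 and 3.82 CPM at term. It fell 3.68-fold (log2 difference -1.88, SE 0.205, adjusted p = 0.000707), with the term animals close to each other. MYBL2, which acts with it, fell from 11.4 to 15.7 CPM to 3.64 and 4.43 CPM (log2 difference -1.75, adjusted p = 0.00266), and E2F1, a switch into S phase, from 2.87 to 3.74 CPM to 1.07 and 1.20 CPM (log2 difference -1.50, adjusted p = 0.0137). CDK1, the kinase that drives mitosis, fell from 13.7 to 19.2 CPM to 6.55 and 7.35 CPM (log2 difference -1.22, adjusted p = 0.00647), and CCNB1, its cyclin, had a log2 difference of -1.31 (adjusted p = 0.00364). With age as a linear term CDK1, CCNB1 and E2F1 were not called, and with the 6 untreated animals fitted alone CCNB1 and E2F1 were not. FOXM1, MYBL2 and CCNB1 stayed past the threshold with any 1 animal left out, whereas without term control 200 CDK1 (log2 difference -1.14, adjusted p = 0.0744) and E2F1 (-1.42, adjusted p = 0.118) did not.

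The machinery of mitosis moved with them. TOP2A, which untangles chromosomes, was at 36.8, 40.3, 62.7 and 38.6 CPM preterm and at 7.10 and 14.1 CPM at term, 4.32-fold lower (log2 difference -2.11, SE 0.281, adjusted p = 0.00247). It was not called with age as a linear term. KIF23, a motor of cytokinesis, fell from 9.51 to 12.6 CPM to 3.16 and 2.69 CPM (log2 difference -1.91, SE 0.198, adjusted p = 0.000679), and BUB1B, of the spindle checkpoint, from 9.44 to 14.1 CPM to 2.69 and 3.82 CPM (log2 difference -1.79, adjusted p = 0.00178). MKI67, the common marker of cycling cells, was at 41.7, 28.6, 44.9 and 37.8 CPM preterm and at 10.3 and 15.3 CPM at term (log2 difference -1.58, SE 0.280, adjusted p = 0.00824; -1.30 and adjusted p = 0.111 without term control 200). Further genes of the spindle and kinetochore that the list did not hold were among the 15 largest falls of called genes with a symbol, such as KIF18B (log2 difference -2.29, adjusted p = 0.00178) and SKA3 (-2.15, adjusted p = 0.00713). The SKA3 call was lost with the 6 untreated animals alone, with age as a linear term and without term control 200 (log2 difference -1.94). KIF18B kept its call in these fits.

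Among genes of DNA synthesis, RRM2 and TYMS, which supply nucleotides, had log2 differences of -1.19 (adjusted p = 0.00534) and -1.15 (adjusted p = 0.00485), and CDC6, a licensing factor, one of -1.18 (adjusted p = 0.0477). The CDC6 call was lost with any 1 animal other than preterm control 209 left out. It was also lost with median-of-ratios scaling, no TMM scaling, no filter, voom weights, the 6 untreated animals alone and age as a linear term. PCNA, MCM7 and PRC1, among the members with the highest mean over the 6 untreated animals, were not called. They too lay below the preterm range in both term animals. That mean takes in the term animals, where called genes had fallen. In the preterm controls alone TOP2A, which was called, averaged 44.6 CPM. PCNA, the sliding clamp, was at 44.0, 34.4, 46.5 and 36.9 CPM preterm and at 27.0 and 28.6 CPM at term (log2 difference -0.53, adjusted p = 0.0554), MCM7, of the helicase, differed by -0.35 (adjusted p = 0.175) and PRC1, which bundles spindle microtubules, by -0.59 (adjusted p = 0.0133), under the 2-fold limit.

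**Figure D3:**
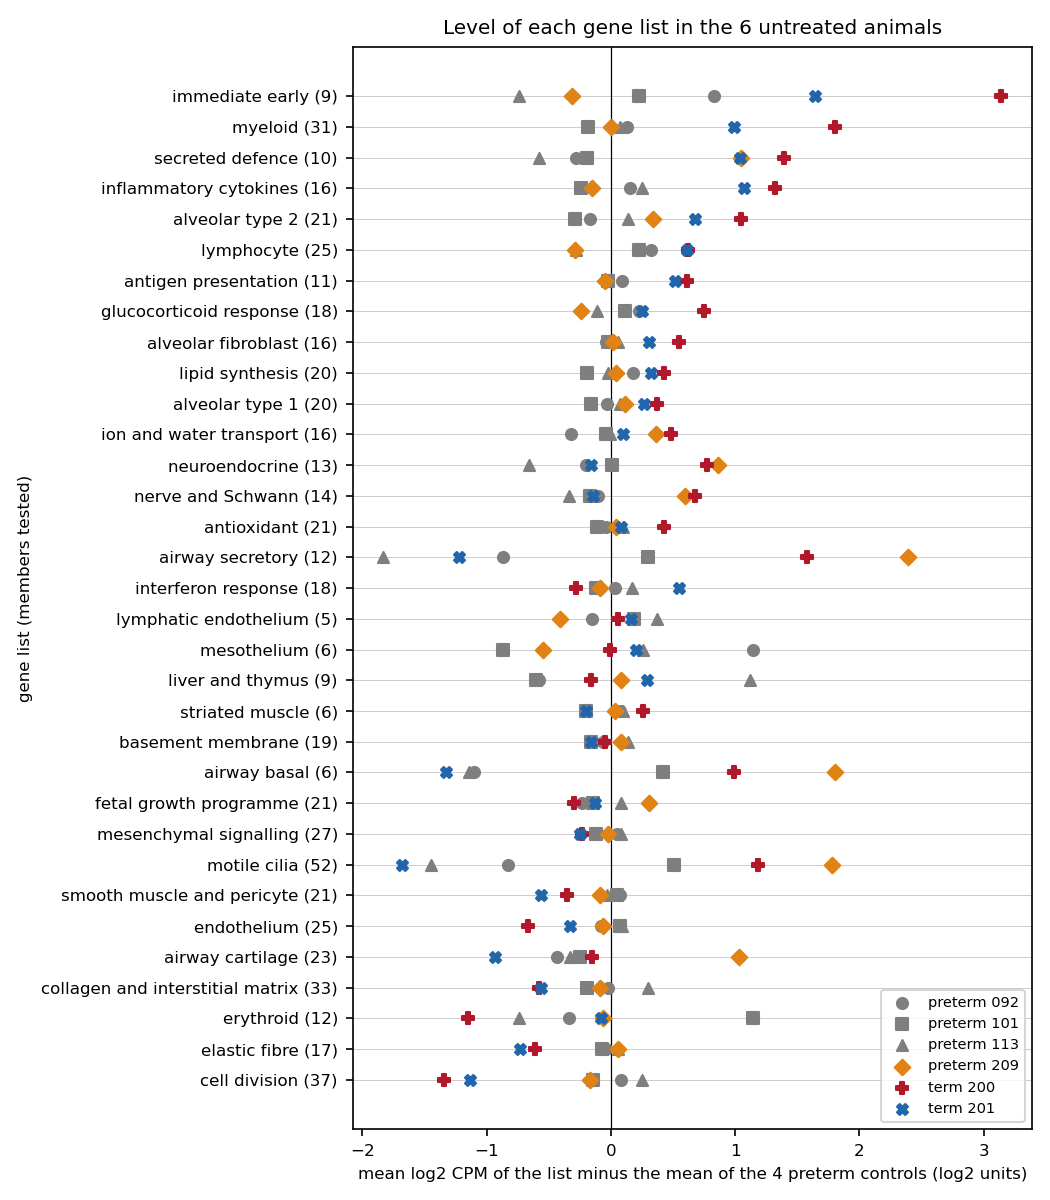
Mean log2 CPM of each gene list other than the Y-linked genes in the 6 untreated animals, as the distance from the mean of the 4 preterm controls in log2 units, with the number of members tested in brackets and lists ordered by the difference between term and preterm means. The term controls (red and blue) lie on the same side of all preterm controls for cell division, interstitial matrix, elastic fibre, alveolar type 2 and myeloid genes, and on opposite sides of the preterm mean for motile cilia, airway secretory and airway basal genes, where term control 200 lies next to preterm control 209.

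Interstitial matrix genes were lower at term. Of 33 collagens, collagen-modifying enzymes and matrix proteins, 6 were called lower and 0 higher, 19 lay below and 1 above the preterm range in both term animals, and the median log2 difference was -0.58. Over all genes 0.953% were called lower, 15.3% lay below and 11.2% above. COL1A1, a chain of the main fibrillar collagen, was at 3775, 2811, 5167 and 5809.6 CPM preterm and at 1717 and 1157 CPM at term (log2 difference -1.58, SE 0.358, adjusted p = 0.0271). Its partner chain COL1A2 was at 3342, 2452, 4602 and 4359 CPM and at 1746 and 1306 CPM (log2 difference -1.25, adjusted p = 0.0319), and COL3A1, the collagen of fine reticular fibres, fell from 4573 to 7547 CPM to 2554 and 3019 CPM (log2 difference -1.05, adjusted p = 0.0231). Preterm control 101 was the lowest preterm animal in all 3 collagens, and still above both term animals. Cross-linking enzymes of collagen and elastin fell too. LOXL1 was at 86.9, 83.4, 74.3 and 85.9 CPM preterm and at 38.5 and 34.4 CPM at term (log2 difference -1.18, SE 0.137, adjusted p = 0.000907), and LOXL2 had a log2 difference of -1.22 (adjusted p = 0.00485). OGN, a small proteoglycan, was the sixth (log2 difference -1.34, adjusted p = 0.0369). FN1, fibronectin, was at 2384 to 2900.4 CPM preterm and at 1606 and 1594 CPM at term. It was under the 2-fold limit, with an adjusted p just above 0.05 (log2 difference -0.66, adjusted p = 0.0539). The 3 collagens were no longer called with either term control left out (COL1A1, log2 difference -1.87 and adjusted p = 0.0899 without 200), and the list then had 3 members called lower without 200 and 1 without 201.

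Elastic fibre genes were lower as well. Of 17 members, 3 were called lower and 0 higher, and 13 lay below the preterm range in both term animals (median log2 difference -0.71). The shares over all genes were 0.953% called lower and 15.3% below. ELN, elastin itself, was at 2690.2, 2648, 2572 and 3364 CPM preterm and at 1371 and 1236 CPM at term (log2 difference -1.11, SE 0.142, adjusted p = 0.00178), and it stayed called with any 1 animal left out. MFAP2, a microfibril protein, fell from 93.5 to 131 CPM to 56.9 and 38.9 CPM (log2 difference -1.24, adjusted p = 0.0153; -0.96 without term control 201, under the 2-fold limit). FBN2, the fetal fibrillin, fell from 46.8 to 70.8 CPM to 21.7 and 26.6 CPM (log2 difference -1.18, adjusted p = 0.0434), a call lost with any 1 animal left out (-1.04 and adjusted p = 0.256 without term control 200). LTBP4, which anchors TGF-beta to microfibrils, was nearer to the preterm level (log2 difference -0.32, adjusted p = 0.333). Of 19 basement membrane genes, 0 were called by limma with or without voom weights, with 3 higher and 5 lower at an unadjusted p under 0.05. COL4A1 and COL4A2, the common type IV chains, had log2 differences of -0.81 (adjusted p = 0.0347) and -0.66 (adjusted p = 0.0224), which is under 2-fold.

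Single mesenchymal genes with larger falls stood outside the lists. FNDC1, a fibronectin-domain protein of activated fibroblasts, was at 225, 129, 169 and 70.3 CPM preterm and at 23.4 and 32.3 CPM at term (log2 difference -2.31, SE 0.344, adjusted p = 0.00373). SFRP4, a secreted Wnt antagonist, was at 73.8, 56.1, 72.1 and 51.9 CPM and at 10.9 and 12.6 CPM (log2 difference -2.42, SE 0.378, adjusted p = 0.00485), and FREM3, a protein of the extracellular matrix, at 10.1 to 22.8 CPM and at 1.43 and 3.20 CPM (log2 difference -2.81, adjusted p = 0.0113). Their log2 differences without term control 200 were -2.07, -2.31 and -2.25, with adjusted p of 0.0543, 0.0557 and 0.138. Among 27 genes of signalling in the mesenchyme, 1 was called lower, compared with 0.953% of all genes. This was FGF18, a growth factor of alveolar mesenchyme, at 7.75, 7.78, 6.74 and 6.34 CPM preterm and at 3.57 and 3.46 CPM at term. Its log2 difference of -1.01 (SE 0.172, adjusted p = 0.00713) lay at the 2-fold limit. The call was lost with median-of-ratios scaling, with no TMM scaling, and without 092, 101 or either term control. It was also lost with the 6 untreated animals alone and with age as a linear term. FGF10, which drives budding of the epithelium, and FGF9 overlapped between the groups (log2 differences -0.29 and 0.03), while the receptor FGFR1 lay below the preterm range in both term animals (-0.45, adjusted p = 0.0554) and FGFR2 above it (0.33, adjusted p = 0.376). Of 21 genes of the fetal growth programme, 0 were called by limma with or without voom weights, with 2 higher and 4 lower at an unadjusted p under 0.05, and IGF2, a fetal growth factor, was at 354 and 609 CPM at term around a preterm range of 491 to 593 CPM.

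Not all mesenchymal genes were lower. Of 16 genes of alveolar fibroblasts, which store lipid and support the type 2 cell, 5 were called higher and 0 lower, with a median log2 difference of 0.32. In both term animals 5 members lay above and 2 below every preterm control, and the other 9 overlapped. Over all genes 1.11% were called higher, 11.2% lay above and 15.3% below. PLIN2, the coat protein of lipid droplets, was at 46.4, 41.0, 39.3 and 30.1 CPM preterm and at 145 and 101 CPM at term (log2 difference 1.64, SE 0.352, adjusted p = 0.0217). GPX3, a secreted peroxidase, was at 17.0, 42.5, 45.6 and 51.7 CPM preterm and at 339 and 127 CPM at term (log2 difference 2.52, SE 0.479, adjusted p = 0.0131). FMO2, a flavin mono-oxygenase of lung, CP, the ferroxidase ceruloplasmin, and FIBIN, a secreted protein, had log2 differences of 1.31 (adjusted p = 0.0372), 1.27 (adjusted p = 0.0169) and 1.18 (adjusted p = 0.0438). In all 5 the term animals lay above every preterm control. ADH1B, one of the most abundant members, overlapped (533 and 380.1 CPM at term, 277 to 416 CPM preterm). Without term control 200, limma called 0 of the 16, with 6 higher and 1 lower at an unadjusted p under 0.05; without 201 it called 2. The log2 difference of GPX3 was 1.81 without term control 200.

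Vessel and muscle genes were lower at term in part. Of 25 endothelial genes, 4 were called lower and 0 higher and 15 lay below the preterm range in both term animals (median log2 difference -0.45). The shares over all genes were 0.953% called lower and 15.3% below. CDH5, the cadherin of endothelial junctions, was at 309, 299.6, 290.0 and 248 CPM preterm and at 84.2 and 179.7 CPM at term (log2 difference -1.22, SE 0.285, adjusted p = 0.0308). HPGD, which degrades prostaglandins, was at 751, 652, 769 and 700.0 CPM and at 211 and 509 CPM (log2 difference -1.13, adjusted p = 0.0432). In both genes term control 200 was far lower than 201, and without it the log2 differences were -0.67 and -0.49 (adjusted p = 0.32 and 0.428). EDNRB, an endothelin receptor, and PLVAP, of the diaphragms of fenestrae, were more alike in the term animals, at 159 and 151 CPM and at 5.63 and 4.86 CPM, with log2 differences of -1.20 (adjusted p = 0.0209) and -1.47 (adjusted p = 0.0239). With term control 200 left out, limma called 0 of the 25 endothelial genes, with 4 lower at an unadjusted p under 0.05. Of 21 genes of smooth muscle and pericytes, 2 were called lower, compared with 0.953% of all genes. ACTA2, smooth muscle alpha-actin, was at 745, 781, 598 and 557 CPM preterm and at 364 and 226 CPM at term (log2 difference -1.21, SE 0.205, adjusted p = 0.00695; -0.86 and adjusted p = 0.0673 without term control 201), and ACTG2, the enteric gamma-actin, at 64.3 to 99.3 CPM and at 33.3 and 20.1 CPM (log2 difference -1.56, adjusted p = 0.00485). MYH11, the smooth muscle myosin, differed by -0.78 (adjusted p = 0.0266), by -1.18 (adjusted p = 0.0121) without term control 200 and by -0.38 (adjusted p = 0.275) without 201.

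Myeloid genes were higher at term, more so in term control 200. Of 31 members, 8 were called higher and 0 lower, compared with 1.11% called higher over all genes. In both term animals 16 members lay above the preterm range, compared with 11.2% of all genes (median log2 difference 1.21). The mean level of the list was 2.27 to 2.58 log2 CPM in the preterm controls, 4.25 in term control 200 and 3.44 in term control 201. CD14, a receptor for bacterial lipopolysaccharide, was at 28.6, 30.1, 30.4 and 43.5 CPM preterm and at 108 and 89.1 CPM at term (log2 difference 1.58, SE 0.231, adjusted p = 0.00353). SPI1, the transcription factor PU.1 of the myeloid lineage, was at 3.22, 3.01, 3.12 and 2.91 CPM and at 17.5 and 8.51 CPM (log2 difference 1.97, SE 0.275, adjusted p = 0.00266). S100A9, a calcium-binding protein of neutrophils and monocytes, was at 3.22, 3.57, 7.74 and 3.42 CPM and at 42.6 and 47.9 CPM (log2 difference 3.41, SE 0.554, adjusted p = 0.00673). ITGAM, the integrin CD11b, and CSF3R, the receptor for G-CSF, had log2 differences of 1.71 (adjusted p = 0.0176) and 2.05 (adjusted p = 0.0385), and AIF1, FCER1G and TYROBP, an actin-binding protein and 2 signalling adaptors, had differences of 1.66, 1.48 and 1.21 (adjusted p of 0.0131 to 0.0209). Only CD14 and SPI1 of these 8 stayed past the threshold without term control 200, while 15 members were called without 201.

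Several genes of macrophages were far higher in term control 200 than in any other animal, and they were chosen for that gap or after their values were seen. CHIT1, a chitinase secreted by activated macrophages, was at 1122 CPM in term control 200, at 9.42 CPM in 201 and at 1.85 to 4.27 CPM in the preterm controls. GPNMB, a lysosomal glycoprotein, was at 319.8 CPM in term control 200 and at 5.24 CPM in 201, and SPP1, osteopontin, was at 451 and 9.10 CPM, with the preterm controls at 7.04 to 8.77 CPM and at 7.13 to 9.40 CPM. MARCO, a scavenger receptor of alveolar macrophages, had no count in any preterm control and was at 9.12 and 0.162 CPM in the term controls, and ITGAX, the integrin CD11c, averaged 8.65 CPM preterm and was at 142 and 13.7 CPM at term. MARCO and ITGAX were named after their values were seen. None of the 5 was called (adjusted p of 0.0541 to 0.309), and with term control 200 left out the log2 differences of the 4 other than MARCO, for which no fold is given, ran from -0.56 (GPNMB) to 1.52 (CHIT1). HK3 and MMP9, a hexokinase and a gelatinase of myeloid cells, were called with the same imbalance: HK3 was at 1.76 to 2.83 CPM preterm and at 69.3 and 5.05 CPM at term, and MMP9 at 0.109 to 0.827 CPM and at 105 and 3.20 CPM. Their log2 differences of 3.09 (adjusted p = 0.0414) and 5.29 (adjusted p = 0.0154) were 1.21 (adjusted p = 0.358) and 2.80 (adjusted p = 0.11) without term control 200.

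Of 16 genes of inflammatory cytokines and their targets, 5 were called higher and 0 lower, and 10 lay above the preterm range in both term animals (median log2 difference 1.06). The shares over all genes were 1.11% called higher and 11.2% above. CXCL8, the neutrophil chemoattractant interleukin 8, was at 0.261, 0.0463, 0.106 and 0.401 CPM preterm and at 8.31 and 2.20 CPM at term (log2 difference 4.20, SE 0.567, adjusted p = 0.00266; 3.26 and adjusted p = 0.0375 without term control 200). CXCL3, a related chemokine, was at 26.6 to 37.8 CPM and at 160.3 and 139.9 CPM (log2 difference 2.18, adjusted p = 0.012), and NFKBIA, the inhibitor that NF-kappaB induces, at 91.9 to 109 CPM and at 207 and 192 CPM (log2 difference 1.05, adjusted p = 0.00708). CCL3 was called with a log2 difference of 1.20 (adjusted p = 0.0383). IL6 was called too, from very few counts, at 0.0364 to 0.248 CPM preterm and at 1.03 and 0.744 CPM at term, and is given no fold change. With voom weights 2 of the 16 were called, and without term control 200 only CXCL8 was. CXCL8 itself missed the threshold with voom weights. TREM1, an amplifier of myeloid activation, and BCL2A1, a survival factor, were also among the 15 largest rises of called genes with a symbol (0.185 to 1.09 CPM and at most 0.497 CPM preterm, 5.78 and 3.08 CPM and 6.44 and 2.78 CPM at term).

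Genes of secreted defence were higher in part. Of 10 members 3 were called higher and 7 lay above the preterm range in both term animals (median log2 difference 1.15), compared with 1.11% and 11.2% of all genes. The mean level of the list still overlapped, at 5.19 log2 CPM in preterm control 209 and 5.53 and 5.18 log2 CPM at term. LCN2, lipocalin 2, which withholds iron from bacteria, was at 9.54, 5.05, 5.68 and 12.1 CPM preterm and at 44.5 and 82.4 CPM at term (log2 difference 2.99, SE 0.402, adjusted p = 0.00266). CAMP, the cathelicidin, was at 1.35, 1.02, 1.99 and 1.24 CPM and at 4.27 and 11.9 CPM (log2 difference 2.34, SE 0.365, adjusted p = 0.00441). With the 6 untreated animals fitted alone LCN2 was called and CAMP was not. Both stayed called with any 1 animal left out, although CAMP moved from 1.60 without term control 201 to 3.07 without 200. CFB, complement factor B, was at 56.9 to 109.9 CPM and at 222 and 211 CPM (log2 difference 1.34, adjusted p = 0.0404), a call lost without 092, 101, 113 or either term control (adjusted p = 0.209 without 200), and C3, complement component 3, at 999 to 1193 CPM and at 1468 and 1969 CPM (0.65, adjusted p = 0.0957). LYZ, lysozyme, overlapped, with 149 CPM in preterm control 209 above all other animals.

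Of 25 lymphocyte genes, 1 was called higher, GZMB, a granzyme of cytotoxic cells, at 7.61 to 13.4 CPM preterm and 19.7 and 24.0 CPM at term (log2 difference 1.09, adjusted p = 0.0231; 1.23 and adjusted p = 0.0951 without term control 200), and 13 lay above the preterm range in both term animals (median log2 difference 0.63). Over all genes 1.11% were called higher and 11.2% lay above that range. Of 11 genes of antigen presentation, 2 were called higher: CD74, the invariant chain of MHC class II, at 156 to 189 CPM preterm and 448 and 308 CPM at term (log2 difference 1.07, adjusted p = 0.022), and MAMU-DMB, its peptide exchanger, at 12.4 to 19.6 CPM and 41.5 and 23.5 CPM (1.00, adjusted p = 0.0456). Without term control 200 the log2 differences of this pair were 0.80 (adjusted p = 0.225) and 0.60 (adjusted p = 0.394). Interferon-induced genes split the term animals: all 18 members were lower in term control 200 than in 201, the list stood at 4.72 and 5.55 log2 CPM in them compared with 4.88 to 5.17 log2 CPM preterm, and limma called 0 with or without voom weights, with 1 higher and 1 lower at an unadjusted p under 0.05. Blood in the tissue was gauged in part by 12 erythroid genes, whose mean level was 2.04 to 3.92 log2 CPM in the preterm controls and 1.63 and 2.70 log2 CPM in term controls 200 and 201, and limma called 0 of them with or without voom weights, with 2 lower at an unadjusted p under 0.05. The globin genes HBB, HBG1, HBG2 and HBZ were not matched to a symbol and are not among the 12.

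Immediate early genes, which switch on within minutes of a stimulus, held some of the largest differences. Of 9 members, 4 were called higher, compared with 1.11% of all genes. All 9 were higher in term control 200 than in 201, compared with 52% of all genes. FOS was at 128, 36.6, 5.11 and 21.4 CPM preterm and at 1581 and 587 CPM at term (log2 difference 5.16, SE 1.21, adjusted p = 0.0361), and FOSB at 12.2, 2.59, 2.13 and 4.99 CPM and at 403 and 104 CPM (log2 difference 5.55, SE 0.963, adjusted p = 0.00943). EGR1 and JUNB had log2 differences of 3.19 (adjusted p = 0.0354) and 2.08 (adjusted p = 0.0443). The preterm controls themselves spread widely, FOS by the step from 5.11 CPM in 113 to 128 CPM in 092, and JUN overlapped between the groups, at 653 and 274 CPM compared with 105 to 368 CPM. DUSP1, a phosphatase induced by the same stimuli and by glucocorticoids, was at 473, 418, 74.7 and 98.0 CPM preterm and at 1200.4 and 789 CPM at term (log2 difference 2.32, adjusted p = 0.073). Without term control 200 limma called 0 of the 9 genes, with 4 higher at an unadjusted p under 0.05, and the log2 differences of FOS, FOSB, EGR1 and JUNB were 4.45, 4.57, 2.36 and 1.42.

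Airway cartilage genes differed widely between animals of one group. Of 23 members tested, 1 was called lower and 0 higher, 5 lay below and 1 above the preterm range in both term animals, and the median log2 difference was -0.30. The shares below and above were 21.7% and 4.35%, compared with 15.3% and 11.2% of all genes. The share called lower was 4.35%, compared with 0.953%. COL2A1, the fibrillar collagen of cartilage, was at 5.09, 8.06, 24.0 and 87.8 CPM in the preterm controls and at 2.06 and 1.62 CPM at term (log2 difference -3.19, SE 0.806, adjusted p = 0.0435). The preterm values spanned a far wider range than the term values, with 113 and 209, both delivered at 135 days, the highest. Without preterm control 209 the log2 difference was -2.40 (adjusted p = 0.0181). The call was lost without preterm control 113 and without either term control (log2 difference -3.35 without 200). It was also lost with no TMM scaling, with voom weights, with the 6 untreated animals alone and with age as a linear term.

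Other cartilage collagens differed in which preterm animal was the highest. COL11A1 and COL11A2, of the heterotypic cartilage fibril, were at 4.44, 5.88, 4.61 and 18.1 CPM and at 3.05, 6.58, 2.98 and 27.4 CPM preterm, and at 4.12 and 3.08 CPM and at 3.72 and 2.36 CPM at term. Preterm control 209 was far above the rest in both, and without it their log2 differences were -0.46 and -0.39. COL9A3, a chain of the collagen on the fibril surface, was lower in both term animals, at 9.67, 24.8, 51.7 and 43.1 CPM preterm and at 9.42 and 6.96 CPM at term (log2 difference -1.73, adjusted p = 0.116), and ACAN, aggrecan, the main proteoglycan of cartilage, was at 2.61, 4.26, 4.58 and 13.8 CPM and at 2.28 and 1.88 CPM (-1.29, adjusted p = 0.179). COL9A1 was at 214, 74.5, 124 and 176 CPM preterm and at 89.5 and 43.8 CPM at term, and overlapped. HAPLN1, the link protein, was at 10.3 CPM in preterm control 209, at 0.568 to 2.26 CPM in the other preterm controls, and at 1.40 and 0.0324 CPM at term. SOX9, the cartilage regulator that distal epithelium also uses, was at 8.88, 4.31, 4.26 and 15.6 CPM preterm and at 15.3 and 6.31 CPM at term, so that 209 and term control 200 were alike, and SCRG1 was the one member above the preterm range in both term animals (0.993 and 1.10 CPM, compared with 0.392 to 0.973 CPM). Preterm control 209 was the highest of the 6 animals in 11 of 23 cartilage genes, compared with 11.5% of all genes, and term control 201 the lowest in 12, compared with 23.5%. The mean level of the list was 1.50, 1.68, 1.60 and 2.96 log2 CPM in the preterm controls and 1.78 and 1.00 at term, and without 209 the list's median log2 difference was 0.01. Without both term control 200 and preterm control 209 it was -0.67.

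Motile cilia genes did not separate term from preterm lung but separated the animals. Of 52 members tested, limma called 0 with or without voom weights, with 2 higher and 1 lower at an unadjusted p under 0.05, and in 50 members the groups overlapped. The list's mean level was 1.34, 2.68, 0.72 and 3.95 log2 CPM in the preterm controls and 3.35 and 0.49 log2 CPM in term controls 200 and 201. The term animals were 2.85 apart on the log2 scale, farther than in any other list but that of the Y-linked genes. Term control 200 was above 201 in 50 of the 52 genes, and preterm control 209 and term control 200 held both highest values in 44, compared with 8.09% of all genes. The median log2 difference of the list was -0.25, but 1.25 without term control 201 and -1.61 without term control 200.

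DNAH5, a heavy chain of the outer dynein arm, was at 1.83, 11.9, 0.923 and 50.5 CPM in the preterm controls and at 21.3 and 0.777 CPM at term (log2 difference -0.45, SE 1.50, adjusted p = 0.911). HYDIN, of the central pair of the axoneme, was at 4.27, 15.7, 1.95 and 69.4 CPM and at 28.3 and 1.33 CPM, DNAH9, another dynein heavy chain, at 3.88, 15.6, 1.38 and 57.0 CPM and at 37.8 and 1.42 CPM, and DNAI1, a dynein intermediate chain, at 0.784, 5.28, 0.781 and 15.1 CPM and at 11.1 and 0.259 CPM. The order of the animals was the same in these 4 genes at the top: 209, then term control 200, then 101. FOXJ1, the master regulator of motile ciliogenesis, had a narrower range, at 35.0, 35.7, 22.9 and 65.4 CPM preterm and at 46.2 and 16.1 CPM at term (log2 difference -0.44, adjusted p = 0.72), as had TPPP3, a tubulin-binding protein, at 107 to 148 CPM and at 119 and 56.8 CPM. The only members outside the preterm range in both term animals were RFX3, a transcription factor of cilia genes, above it (1.28 to 4.01 CPM preterm, 4.16 and 5.37 CPM at term, adjusted p = 0.102), and TP73, a p53-family factor of multiciliated cells, below it (36.6 to 45.4 CPM preterm, 33.4 and 28.7 CPM at term, adjusted p = 0.246). RFX3 passed the threshold without preterm control 209 (log2 difference 1.39, adjusted p = 0.0172) but not without term control 200 (1.28, adjusted p = 0.232) or 201 (0.92, adjusted p = 0.367).

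**Figure D4:**
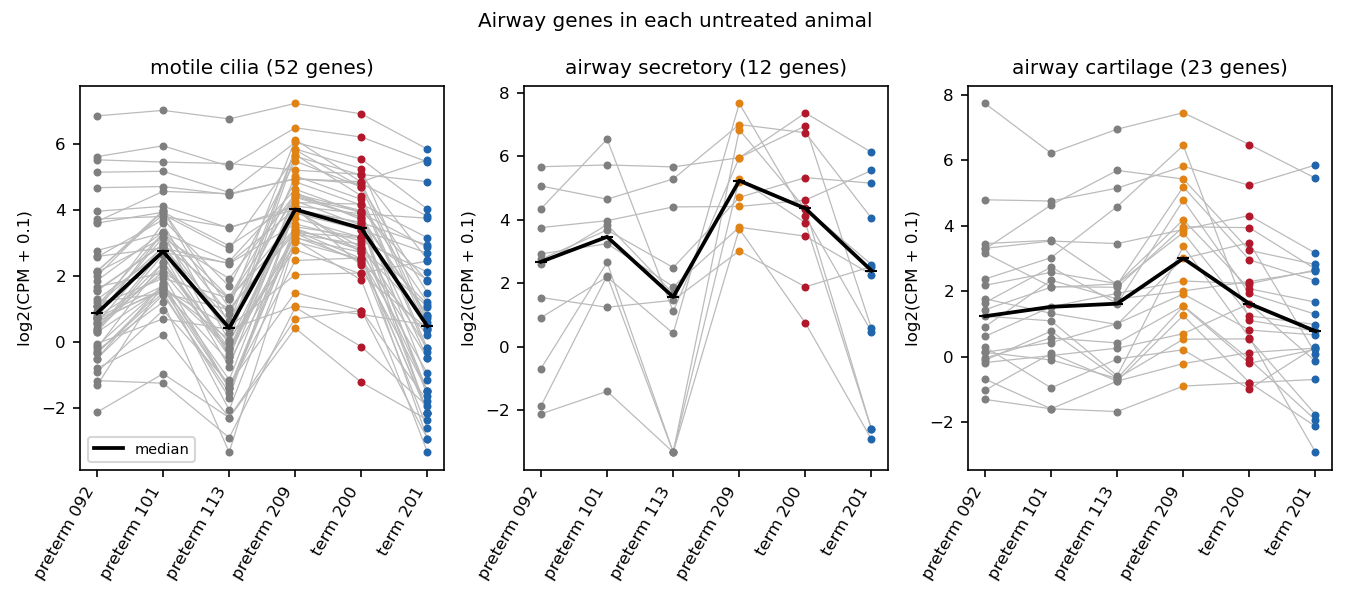
Log2(CPM + 0.1) of each member (grey lines and coloured points) of the motile cilia, airway secretory and airway cartilage lists in the 6 untreated animals, with the median of the list as a black line. Preterm control 209 and term control 200 are high and preterm control 113 and term control 201 low in the cilia genes (list means of 3.95, 3.35, 0.72 and 0.49 log2 CPM), and in cartilage preterm control 209 alone is high.

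The other cell types of the airway set the same animals apart, with preterm controls 209 and 101 and term control 200 the highest. SCGB1A1, the secretoglobin of club cells, was at 20.3, 92.9, 2.06 and 62.1 CPM in the preterm controls and at 124 and 1.39 CPM in the term controls, and MUC5B, a gel-forming mucin, at 0.522, 6.21, 0 and 38.9 CPM and at 14.9 and 0.0647 CPM. BPIFB1, a protein of airway glands and goblet cells, was at 114 CPM in preterm control 209, at 20.3 CPM in term control 200 and at 0.0647 CPM in 201. KRT5, a keratin of basal cells, was at 3.35, 19.2, 0.532 and 45.6 CPM preterm and at 24.0 and 0.842 CPM at term. Of 12 airway secretory and 6 airway basal genes, limma called 0 with or without voom weights, with 2 secretory genes higher and 1 basal gene lower at an unadjusted p under 0.05. The sign of these lists turned with the animals used: the median log2 difference of the secretory genes was -1.09 without term control 200 and 1.46 without 201.

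The libraries also differed in Y-linked RNA. DDX3Y, a Y-linked RNA helicase, was at 205, 247, 229 and 0.0364 CPM in the preterm controls and at 0.184 and 200.1 CPM in the term controls, and RPS4Y1, a Y-linked ribosomal protein, at 406, 351, 376 and 0.947 CPM and at 0.883 and 356 CPM. Preterm control 209 and term control 200, both high in airway genes, thus carried almost none, whereas preterm control 101, whose cilia list mean was 2.68 log2 CPM, carried as much as the other animals. All 8 Y-linked genes of the list overlapped between term and preterm and 0 were called by limma with or without voom weights, with 0 at an unadjusted p under 0.05. The part of airway content and of the Y-linked level in the comparison of term with preterm lung was not tested. With term control 200 and preterm control 209 both left out, which leaves 1 term and 3 preterm controls, the lone term animal being assumed to vary like the other groups, 110 genes were called higher and 128 lower, and 46 and 88 of these were among those called with all 6 animals. The counts in the lists were then 17 of 37 lower for cell division, 3 of 33 lower for interstitial matrix, 3 of 31 higher for myeloid genes and 2 of 10 higher for secreted defence.

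Further large differences lay outside the groups described so far. MARCHF4, a membrane-bound ubiquitin ligase, was at 7.10, 7.46, 3.12 and 5.03 CPM preterm and at 0.552 and 0.291 CPM at term (log2 difference -3.52, SE 0.493, adjusted p = 0.00266). ENPP6, a choline-specific phosphodiesterase, was at 192, 164, 152 and 124 CPM and at 51.7 and 12.9 CPM (log2 difference -2.59, SE 0.512, adjusted p = 0.0154; -3.59 and adjusted p = 0.0146 without term control 200, -1.59 and adjusted p = 0.137 without 201), and KCNIP1, a potassium channel partner, fell from 4.15 to 7.84 CPM to 0.883 and 1.26 CPM (log2 difference -2.41, adjusted p = 0.00285). Among the rises were ZBED2, a zinc-finger transcription factor, at no more than 0.583 CPM preterm and at 1.66 and 6.34 CPM at term (adjusted p = 0.023), and ITLN1, intelectin, a lectin that binds microbial sugars and is a marker of mesothelium, at 16.3 to 22.2 CPM and at 104 and 75.5 CPM (log2 difference 2.31, SE 0.578, adjusted p = 0.0412). ITLN1 was the only 1 of 6 mesothelial genes called, compared with 2.07% of all genes. MARCHF4 and KCNIP1 stayed called with any 1 animal left out, whereas ZBED2 and ITLN1 were no longer called without 092, 101, 113 or either term control (ITLN1, log2 difference 2.08 and adjusted p = 0.24 without term control 200).

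The remaining lists gave no call. They were lymphatic endothelium (5 genes), neuroendocrine cells (13), nerve and Schwann cells (14), striated muscle (6), and liver and thymus (9), the last 2 as marks of other tissue. Limma called 0 in each with or without voom weights, with 0 to 2 genes higher and 0 or 1 lower at an unadjusted p under 0.05, and their median log2 differences ran from -0.11 to 0.29.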

How the data were processed

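RNA from frozen lung of 16 animals was sequenced as 75 bp paired-end, poly(A)-selected libraries. The authors quantified reads with kallisto against Mmul_10 and analysed them with DESeq2, with no version stated in the labels. The authors deposited whole-number counts per gene, named here by the identifiers and symbols paired in the tables. From these, CPM with TMM scaling (trims of 30% and 5%) and log2 CPM with a prior count of 2 were computed. A gene was tested at 0.371 CPM or more in at least 2 animals and 15 counts in all. Term and preterm controls were compared with limma 3.58.1 (trend and robust, R 4.3.3) over all 5 groups, with Benjamini-Hochberg adjustment; the steps were tested on simulated data. No negative binomial model was run. P-values measure the spread between animals, and no number pairs them.

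The animals and the 34 gene lists were chosen with earlier results of these data known. Genes named were the 15 largest calls each way with a symbol, called and abundant list members, cartilage and cilia members, the 10 largest gaps each way between the term animals, and genes the study discusses for term lung. The gaps were ranked only among genes with a symbol and above a minimum mean CPM in the 6 untreated animals. Alternatives were median-of-ratios scaling, no TMM scaling, no filter, a prior of 0.5, voom weights, the 6 animals alone, age as a linear term, no minimum fold, and leaving out each animal or both term control 200 and preterm control 209. Promoters and coordinates were not analysed here.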

Additional observations from a re-analysis of the deposited data

Results flagged for a closer look

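In 21 of 176 sets of 4 preterm values examined (142 genes and 34 lists), 1 preterm control stood apart from the other 3 by Dixon's test, which chance does in about 1 in 20 sets. The 4 animals are the same in every set, so the sets are not independent. Preterm control 209 was the high one for airway and cartilage genes, at 203 CPM for SCGB3A1, 128 CPM for SCGB3A2, 38.9 CPM for MUC5B, 114 CPM for BPIFB1, 18.1 CPM for COL11A1 and 27.4 CPM for COL11A2, and the mean of the airway cartilage list was 2.96 log2 CPM. It was also high for LYZ (149 CPM), CD14 (43.5 CPM), CSF3R (23.1 CPM), ELN (3364 CPM) and ZBED2 (0.583 CPM). It was low for CCL3 (1.17 CPM), RPS4Y1 (0.947 CPM) and the mean of the Y-linked list (-1.75 log2 CPM). Preterm control 113 was high for TOP2A (62.7 CPM), FN1 (2900.4 CPM), S100A9 (7.74 CPM), IL6 (0.248 CPM) and ITLN1 (22.2 CPM). Preterm control 092 was high for NFKBIA (109 CPM). Groups of 2 cannot be examined in this way, so the term controls are not covered.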

How the results depend on the processing

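The 214 genes called higher and 183 called lower kept their direction under each alternative. The call nearly fixed this: all but 1 of them lay outside the preterm range in both term animals, so leaving out animals could not reverse those. The medians of the uncalled airway lists changed sign with the animals used (motile cilia, -1.61 without term control 200 and 1.25 without 201). All 78 called genes among the 142 named kept their sign with each animal left out in turn; 18 of them stayed called each time. That these 78 kept their sign was likewise nearly fixed by the call. The counts moved more. Fitting the 6 untreated animals alone gave 49 genes higher and 66 lower, gestational age as a linear term 52 and 53, and no minimum fold 496 lower. Leaving out 1 animal at a time gave 58 to 288 higher and 71 to 271 lower, and leaving out term control 200 with preterm control 209 gave 110 higher. Genes with both term animals above every preterm control numbered 2577 to 5204 with 1 animal left out and 5264 with that pair left out, and those below 3191 to 6178 and 7411; fewer animals make such separation easier to reach. Called cell division genes numbered 11 with age as a linear term and 12 to 23 with 1 animal left out. For interstitial matrix the counts were 1 with the 6 animals alone, 2 with age, 10 with no minimum fold, 3 without the pair and 1 to 7 with 1 animal left out. Alveolar fibroblast genes numbered 2, 2 and 0 in the fits of the 6 animals, of age and without the pair, and 0 to 4 with 1 animal left out. Myeloid genes numbered 3 in each of those fits and 2 to 15 with 1 animal left out. Inflammatory cytokine genes numbered 2 with voom weights, 3 with the 6 animals, 3 with age, 1 without the pair and 1 to 4 with 1 animal left out. The cause was not tested. No paired analysis was possible because the groups share no animal number. With 2 term animals, differences of age and of single animals cannot be told apart, and a gene that missed the threshold is not shown to be unchanged.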

Other observations

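The 20 genes at which the term animals were farthest apart fell into few kinds. Higher in term control 200 were, beside the genes already described, the axonemal or cilia-associated genes ARMC3 (12.2 and 0.129 CPM in term controls 200 and 201), SPAG6 (11.4 and 0.129 CPM), TTLL6 (17.3 and 0.227 CPM) and SAXO3 (15.3 and 0.227 CPM). Each was within the preterm range in term control 200 or close above it, with preterm highs of 23.5, 19.2, 15.2 and 29.8 CPM. Higher in term control 201 were mainly Y-linked genes, such as USP9Y (0.294 and 135 CPM) and UTY (0 and 58.3 CPM). EGLN2, a prolyl hydroxylase of the oxygen-sensing pathway, was at 20.9 CPM in preterm control 209 and 10.3 CPM in term control 201 and had no count in the other 4 untreated animals.

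Further mitotic genes were among the 15 largest falls of called genes with a symbol. PRR11 was at 2.19 to 2.66 CPM in the preterm controls and at 0.221 and 0.906 CPM at term (log2 difference -2.22, adjusted p = 0.0165 by limma), PIMREG had a log2 difference of -2.30 (adjusted p = 0.00374), and DEPDC1 one of -2.20 (adjusted p = 0.024). DRAXIN, an axon guidance protein, was called lower from few counts, at 0.556 to 1.03 CPM preterm and 0.0368 and 0.0324 CPM at term, and GPR84, a receptor of myeloid cells for fatty acids, was called higher at 3.46 and 0.227 CPM with at most 0.0435 CPM preterm; no fold is given for these.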
